A study of Mus musculus with 16 samples.

Results

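The VEGF and angiopoietin axis was taken as 10 genes, selected by symbol among the gene rows of the count matrices (10 of 27998). They were the ligands Vegfa, Angpt1 and Angpt2, the VEGF receptors Flt1 and Kdr, the co-receptor Nrp1, the angiopoietin receptor Tek with its partner Tie1, the TGF-beta co-receptor Eng, and the secreted glycoprotein Lrg1. All 10 symbols were found. Of the 86510 differentially methylated regions in the authors' deposited table, 74 were annotated to them.

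The data came from kidneys of wild type and Gulo-/- C57BL/6 mice. Mice make vitamin C with the help of L-gulonolactone oxidase, the product of Gulo, and animals without it depend on supply from food or water. The labels give genotype and strain but no age, sex, diet or vitamin C supply, and they state that chopped kidneys were mixed and then split over the assays. Single-cell RNA was read in 4 libraries, a pair for each genotype. The labels do not name the animals behind a library. P-values measure the spread between these 4 libraries.

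VEGF-A is made by epithelial cells of the kidney and acts on the endothelium beside them, where KDR carries most of the signal, FLT1 binds the ligand with high affinity and works largely as a decoy, and NRP1 strengthens KDR signalling. Angiopoietin 1 activates TEK and stabilises vessels, while angiopoietin 2 mostly antagonises it, and TIE1 modifies TEK activity. Endoglin tunes TGF-beta and BMP signalling in endothelial cells, and LRG1 acts on that arm through endoglin.

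Cells were assigned to classes by UMIs (unique molecular identifiers, each standing for 1 captured transcript) of marker genes that included none of the 10. Levels are given as UMIs per 1000000 UMIs of all cells of that class in a library (CPM). Values are listed with wild type replicates 1 and 2 first and Gulo-/- replicates 1 and 2 after them. Depth was uneven, at 10208946, 61688164, 10073836 and 88925323 UMIs in that order. Of the 1575, 7094, 1849 and 12403 cells kept, 88, 135, 314 and 843 fell in the endothelial gate. The median mitochondrial share of these endothelial cells was 10.85%, 25.51%, 10.28% and 7.451%, highest in wild type replicate 2. Mitochondrial UMIs count in the CPM totals. Wild type replicates 1 and 2 shared 887 cell barcodes, 50.6% of the smaller set, against 0.4% to 2.63% for the other pairs. These barcodes were removed from replicate 2. Xist and Y-linked UMIs put a female and a male library in each genotype, so the libraries of a genotype did not come from 1 shared animal, with Gulo-/- replicate 1 and wild type replicate 2 the males.

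The promoters of Lrg1 and Flt1 lay wholly inside a deposited methylation region, and the Kdr promoter lay in none. Their 250 bases before the start are shown 5′ to 3′ (RefSeq, GRCm38.p6) with each CpG, the dinucleotide that can be methylated, in capitals. Lrg1 is at chr17:56121947-56122196, Flt1 at chr5:147726012-147726261 and Kdr at chr5:75978456-75978705, all on the minus strand.
Lrg1: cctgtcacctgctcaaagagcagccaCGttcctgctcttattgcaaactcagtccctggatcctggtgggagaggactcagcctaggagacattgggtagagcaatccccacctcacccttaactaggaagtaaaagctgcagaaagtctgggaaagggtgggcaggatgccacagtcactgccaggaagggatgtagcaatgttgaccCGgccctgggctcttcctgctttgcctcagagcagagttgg
Flt1: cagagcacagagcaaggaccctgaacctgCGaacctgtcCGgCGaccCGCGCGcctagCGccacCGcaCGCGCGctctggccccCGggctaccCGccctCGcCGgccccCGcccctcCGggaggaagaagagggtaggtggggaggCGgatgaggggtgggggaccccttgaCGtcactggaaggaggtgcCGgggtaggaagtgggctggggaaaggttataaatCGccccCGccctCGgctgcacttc
Kdr: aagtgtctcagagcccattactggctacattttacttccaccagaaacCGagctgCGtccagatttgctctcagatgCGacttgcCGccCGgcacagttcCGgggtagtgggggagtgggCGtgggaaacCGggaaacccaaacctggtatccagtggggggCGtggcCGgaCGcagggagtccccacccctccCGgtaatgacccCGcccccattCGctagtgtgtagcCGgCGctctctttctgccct
The Lrg1 window held 2 CpGs, as did the Tek window, and 81.2% of the 32851 promoter windows in the table held at least as many. The Flt1 window held 23, reached by 13.3% of windows, and the Kdr window held 16, reached by 25.4%. Windows were found for 8 of the 10 genes, all but Angpt1 and Angpt2.

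The first question was where each gene was read in the kidney. Vegfa was a tubule and podocyte transcript in these libraries, Angpt1 was read mainly in distal nephron classes, and Angpt2 in a small epithelial gate. Flt1, Kdr, Tek, Tie1 and Eng were highest in the endothelial gate. Nrp1 was highest there as well and reached measurable levels in stromal cells, macrophages and thick ascending limb. Lrg1 was highest in the neutrophil gate, followed by the endothelial gate. These levels are a description, with no test between classes.

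Vegfa, the main VEGF ligand, stood at 113.6, 77.5, 134 and 82.4 CPM in collecting duct principal cells. Means over the 4 libraries were 102 CPM ± 26.8 (SD) in principal cells, 89.3 ± 50.5 in distal convoluted and connecting tubule, 82.7 ± 28.0 in thick ascending limb and 78.1 ± 37.6 in intercalated cells. These 4 neighbours in the order did not differ beyond their spread. Proximal tubule was lower at 31.0 ± 10.5, and endothelial cells at 5.82 ± 5.33, with 0 UMIs in wild type replicate 1. Podocytes gave the largest Vegfa value, 385 CPM, but it came from 31 UMIs in 21 cells of Gulo-/- replicate 2, and the other libraries held 0, 1 and 0 podocytes.

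Angpt1, the TEK agonist, was also read in the distal nephron. In principal cells it stood at 12.6, 27.8, 37.3 and 54.7 CPM. Both Gulo-/- libraries lay above both wild type libraries there, from 1, 19, 27 and 458 UMIs, and the class had too few cells in wild type replicate 1 (17) for a test. Distal convoluted and connecting tubule followed at 17.6 ± 6.23 CPM, and the endothelial gate held 0, 3, 4 and 8 Angpt1 UMIs.

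Angpt2, the TEK antagonist, was concentrated in one small gate. Cells selected on Slc14a2, Cldn4, Bst1, Akr1b3, Sptssb and Corin numbered 4, 5, 16 and 85 in the libraries in the order above, under 1% of the cells of each. They carried 86.8%, 57.3%, 61.5% and 57.7% of all Angpt2 UMIs of the kept cells, at 3287, 1271, 333 and 782 CPM. The markers had been listed for thin limb, but the gate's leading genes included uroplakins of the urothelium, so it is named here by its markers alone. Cells of the gate without Upk1a or Upk3a UMIs still held 44, 51, 52 and 539 of its 105, 51, 56 and 670 Angpt2 UMIs. In the authors' deposited marker table, Angpt2 was listed for the cluster named EPI, with 38.4% of its cells positive against 0.8% outside it. The endothelial gate held 22.3, 31.0, 15.6 and 29.8 Angpt2 CPM.

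**Figure D1:**
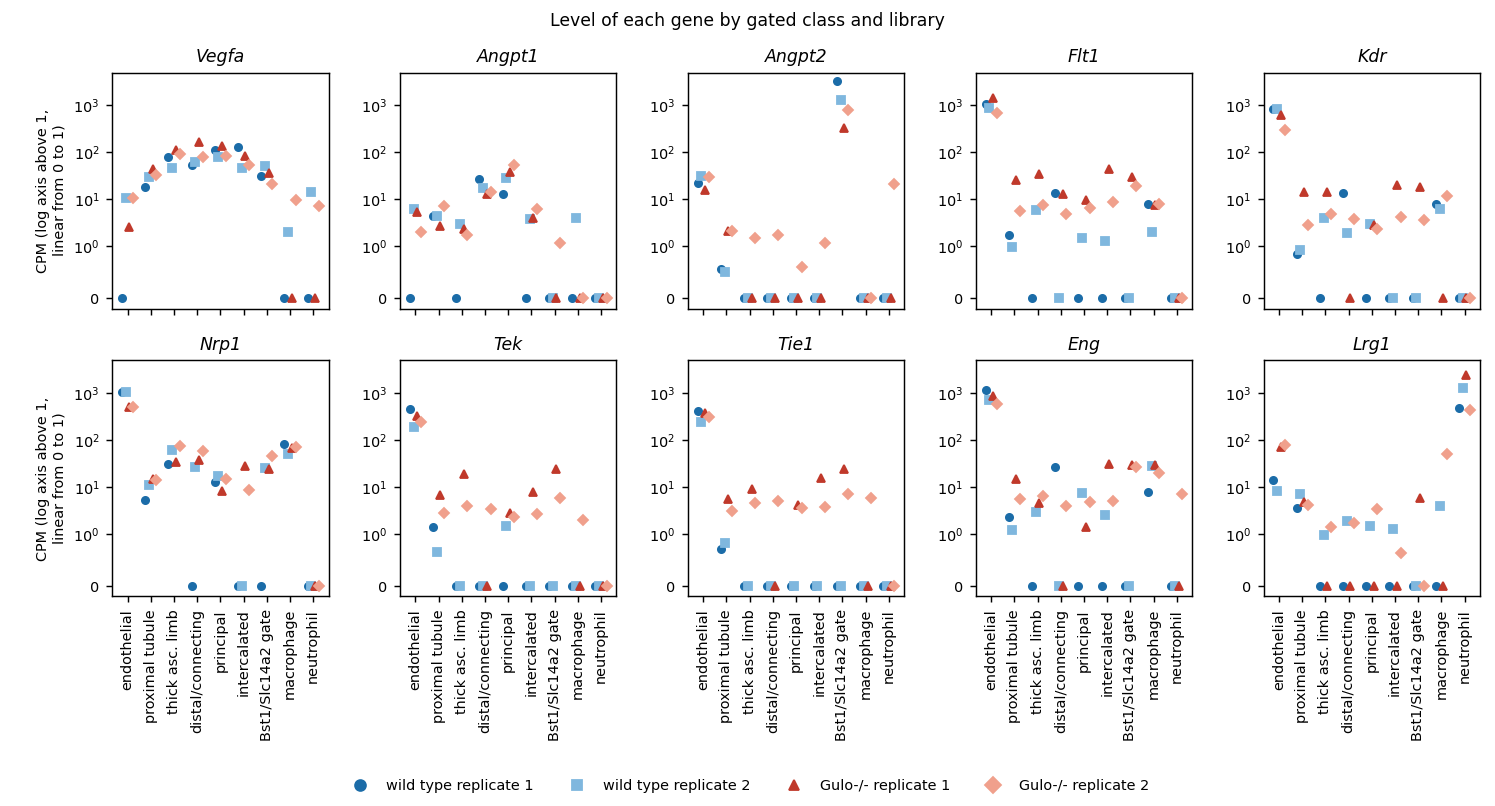
Level of each gene in CPM (y, log axis above 1) in 9 gated classes (x), 1 point per library, with wild type in blue and Gulo-/- in red. Flt1, Kdr, Tek, Tie1 and Eng peak in the endothelial gate, Angpt2 in the gate on Bst1, Slc14a2 and 4 other markers, and Lrg1 in neutrophils.

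The receptors followed the endothelial gate. The authors' deposited marker table lists Flt1, Eng, Kdr, Nrp1, Tie1 and Tek for the cluster named fEC, with natural log ratios of 2.21, 1.98, 1.65, 1.59, 1.32 and 1.27 against other cells, and lists neither Lrg1 nor Vegfa nor Angpt1 for any cluster. Nrp1 was the receptor with most signal elsewhere. Its means were 255 CPM in stromal and mural cells, 68.5 in macrophages and 50.6 in thick ascending limb, against 783 in the endothelial gate. The stromal and mural gate held only 3, 0, 15 and 33 cells, so its mean leaves out wild type replicate 2. The 10 endothelial gate markers can serve as a scale for endothelial RNA outside endothelial cells. In thick ascending limb they stood at 0.655% to 1.43% of their endothelial level, while Nrp1 stood at 2.98%, 5.78%, 6.73% and 14.8%. These Nrp1 values came from 5, 63, 15 and 1424 UMIs in thick ascending limb.

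Lrg1 stood at 479, 1301, 2495 and 431 CPM in the neutrophil gate, from 1, 27, 2 and 58 cells, so no order of the libraries can be read there. In macrophages its mean was 13.7 CPM, and in proximal tubule 4.90.

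The genes most like each member were named by Pearson r of log2(CPM + 10) over 16 library-by-class sums. These were endothelial, proximal tubule, thick ascending limb and macrophage sums in 4 libraries. This is a description over sums that share libraries and depth. Classes with fewer than 20 cells in a library were left out. The classes with the highest Vegfa, Angpt2 and Lrg1 levels are therefore missing, as are the principal cells with Angpt1. Angpt1 reached at most 7.27 CPM in proximal tubule and 6.2 in endothelial cells, under the 10 CPM added. Tie1 was closest to Bvht (r = 0.998), Heg1 and Ccm2l, Tek to Fgd5 (0.995), Tie1 and Adgrl4, and Eng to Icam2 (0.995), Procr and Klf7. Flt1 was closest to Plvap (0.991), Tmem204 and Fam167b, and Kdr to Mapk12 (0.993), Gimap4 and Cd300lg. Nrp1 was closest to Laptm4a (0.976), Tcf4 and S100a13, Angpt2 to Palmd (0.991), 5430416O09Rik and Afap1l2, and Lrg1 to Spata6 (0.951), Dnajb5 and Numbl. For Vegfa these were Rhot2 (0.976), Elovl7 and Cpt1a, and for Angpt1 Gm4724 (0.833), Trim32 and Gm26620.

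The next comparison asked whether genotype changed these genes within endothelial cells. Lrg1 rose in Gulo-/- endothelial cells. Nrp1 and Kdr were lower in both Gulo-/- libraries than in both wild type libraries without passing the test across all genes. Flt1, Tek, Tie1, Eng and Angpt2 overlapped between genotypes. Of the 8 genes with enough UMIs to be tested, 1 was called, against 0.309% of all 6799 genes tested. Those were 21 genes, 3 higher and 18 lower (edgeR quasi-likelihood test, Benjamini-Hochberg adjusted p under 0.05). The called member was Lrg1, and the members were chosen with earlier results of these data known. They are therefore not an unselected set to compare with all genes.

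Lrg1, the secreted glycoprotein, stood at 13.9 and 8.27 CPM in the wild type libraries and at 70.3 and 79.0 in the Gulo-/- libraries, from 5, 4, 54 and 313 UMIs. Both Gulo-/- libraries were above both wild type libraries. The log2 change was 2.63 ± 0.38 (SE, edgeR adjusted p = 0.0462, n = 2 libraries per genotype). This rise was known from earlier results of these libraries and is given here as the base for what follows. Without wild type replicate 2 it was 2.36 with an adjusted p of 0.193, and with sex as a block 2.63 with an adjusted p of 0.0701. With a mitochondrial limit of 25% the adjusted p was 0.0676, and without endothelial cells carrying proximal tubule markers it was 0.0813. The 6 neutrophil gate markers summed to 0, 45.5, 9.11 and 157 CPM in the endothelial gate, overlapping between genotypes. They held 0, 22, 7 and 621 UMIs beside 5, 4, 54 and 313 of Lrg1, and their part in the result was not tested.

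Nrp1, the co-receptor, stood at 1043 and 1069 CPM in wild type and 517 and 505 in Gulo-/- endothelial cells. The wild type libraries lay close together and well above the Gulo-/- pair. The log2 change was -1.20 ± 0.25 (SE, n = 2 libraries per genotype, edgeR unadjusted p = 0.00161, adjusted p = 0.132). Leaving out 1 library gave edgeR adjusted p-values from 0.0163 (without Gulo-/- replicate 1) to 0.465 (without wild type replicate 2). It was 0.0487 with DESeq2, 0.269 with sex as a block and 0.206 without cells carrying proximal tubule markers.

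Kdr, the main signalling receptor, stood at 836 and 821 CPM in wild type and 632 and 294 in Gulo-/- endothelial cells. Both Gulo-/- libraries were below both wild type libraries, but they differed more from each other than Gulo-/- replicate 1 did from wild type. The log2 change was -0.97 ± 0.41 (SE, n = 2 libraries per genotype, edgeR unadjusted p = 0.0471, adjusted p = 0.477). It was -0.46 without Gulo-/- replicate 2 and -1.72 without Gulo-/- replicate 1, where the adjusted p was 7.82e-04.

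Flt1, the decoy receptor, stood at 1057 and 889 CPM in wild type against 1401 and 690 in Gulo-/- libraries, so the Gulo-/- pair lay on both sides of wild type. Its log2 change was -0.01 ± 0.38. Eng stood at 1157, 722, 889 and 592 CPM and changed by -0.45 ± 0.33 (log2, SE). The angiopoietin receptor Tek stood at 471, 194, 324 and 243 CPM (-0.33 ± 0.39), and Tie1 at 418, 248, 374 and 318 CPM (-0.06 ± 0.29). For these 2 receptors the wild type libraries differed from each other more than the genotypes did. Angpt2 changed by -0.34 ± 0.44. Adjusted p-values of these 5 genes lay between 0.69 and 0.996 (edgeR). Libraries of one genotype lay wholly above those of the other for 3 of the 8 genes, 1 higher and 2 lower in Gulo-/-, where 29% and 12% of all tested genes did so.

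**Figure D2:**
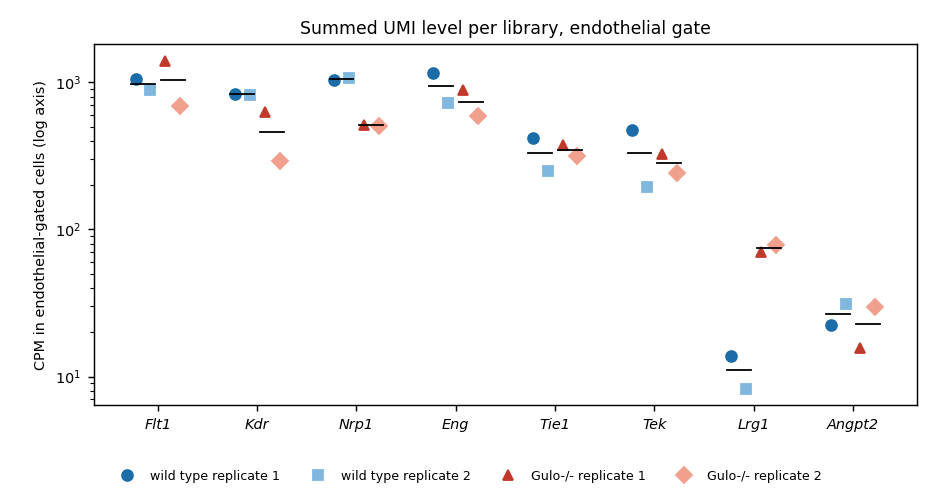
CPM in endothelial-gated cells (y, log axis) of the 8 tested genes (x), 1 point per library, with black bars for the mean of the 2 libraries of a genotype. Lrg1 is higher and Nrp1 and Kdr are lower in both Gulo-/- libraries, and the other genes overlap.

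The share of endothelial cells with at least 1 UMI of a gene was compared after thinning each cell to 1000 UMIs, which left out 0 endothelial cells. Nrp1 was seen in 53.4% and 58.5% of wild type and 36.3% and 38.3% of Gulo-/- endothelial cells, and Kdr in 52.3% and 51.1% against 44.6% and 25.3%. Lrg1 was seen in 2.27% and 1.48% against 4.14% and 4.39%, from 2, 2, 13 and 37 cells. Its exact binomial intervals overlapped, at 0.276% to 7.97% and 0.18% to 5.25% against 2.22% to 6.98% and 3.11% to 6%. In proximal tubule cells, read for comparison, thinned shares were 0.57% to 1.05% for Nrp1, 0.0814% to 1.37% for Kdr and 0.407% to 0.796% for Lrg1. Whether this signal is stray RNA or RNA of the tubule cells was not tested. All 3 endothelial shares separated the genotypes, with an exact two-sided permutation p of 0.333. This is the smallest that 2 against 2 libraries allow, so the test cannot decide on a difference. The 3 genes were those already apart in summed CPM of the same cells, so their shares are not independent of those sums. Endothelial shares of Flt1, Tek, Tie1, Eng, Vegfa, Angpt1 and Angpt2 did not separate the genotypes after this thinning. Unthinned median depths were 3527, 3177, 1874 and 3274 UMIs per endothelial cell.

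Endothelial cells of the kidney are of several kinds, and their mix differed between libraries. Each cell was given the kind whose marker list, with at least 2 UMIs, stood highest against its mean level in the gate. Glomerular markers included Ehd3 and Sema3g, peritubular ones Plvap and Igfbp3, and arterial or descending vasa recta ones Sox17 and Cldn5. Cells carrying arterial or descending vasa recta markers made up 6.82% and 14.8% of wild type endothelial cells, and 15% and 44.8% of Gulo-/- ones. Glomerular cells made up 34.1%, 24.4%, 9.55% and 15.8%, and peritubular capillary cells 59.1%, 60.7%, 75.2% and 39.1%. A changed mix of kinds and a changed level within a kind cannot be told apart in sums over the whole gate, so the genes were also read within each kind. These readings were chosen after the data had been seen. Sorting markers themselves moved with genotype in the whole gate, in both directions and without a call. Ehd3 changed by -1.23, Sema3g by 0.88 and Cldn5 by 1.07 (log2). The part of such changes in the mix and in the levels within a kind was not tested.

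Within peritubular capillary cells, Nrp1 stood at 933 and 1025 CPM in wild type against 569 and 569 in Gulo-/- libraries. The separation of the whole gate was present in this kind too, where the share of all genes so separated was not counted. The log2 change was -0.92 ± 0.26 (SE, edgeR unadjusted p = 0.00697, adjusted p = 0.278, n = 2 libraries per genotype), where 0.228% of 4833 genes were called. Within glomerular cells Nrp1 stood at 1223 and 1675 against 782 and 1054 CPM, a log2 change of -0.76 ± 0.32 (SE, edgeR adjusted p = 0.503), where 0.417% of 2156 genes were called. In arterial or descending vasa recta cells the values were 997 and 360 against 282 and 332 CPM, from 6 cells in wild type replicate 1.

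Kdr was lower in arterial or descending vasa recta cells than in the other kinds in every library, at 262, 131, 228 and 119 CPM. Gulo-/- replicate 2, where this kind was most frequent, had the lowest Kdr both in the whole gate and within each kind. The part of the mix in the Kdr values of the whole gate was not tested. Within peritubular capillary cells Kdr stood at 850 and 946 CPM in wild type against 787 and 508 in Gulo-/- libraries, and within glomerular cells at 988 and 1059 against 725 and 620. The genotypes did not overlap within either kind, and the log2 changes were -0.60 ± 0.31 and -0.70 ± 0.30 (SE), with edgeR adjusted p of 0.609 and 0.503. How many of all genes separate in this way was not counted within a kind. In the whole gate 12% of tested genes lay lower in Gulo-/- without overlap.

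Lrg1 had 0 UMIs in wild type peritubular capillary cells of either library, and stood at 55.0 and 42.6 CPM in Gulo-/- ones. A floor of 3 counts over the 458494 wild type UMIs of this kind is 6.54 CPM. The UMIs of both Gulo-/- libraries together stood at 46.7 CPM, 7.13-fold above that floor. The floor covers counting error of the pooled wild type UMIs only, and not the spread between libraries. Without wild type replicate 2 the floor was 15.5 CPM and the ratio 3-fold, and without wild type replicate 1 the ratio was 4.13-fold. The edgeR adjusted p within this kind was 0.0869. Glomerular cells had 23.5 and 7.90 CPM in wild type against 79.3 and 51.8 in Gulo-/- libraries, and arterial or descending vasa recta cells 52.5 and 32.8 against 102.0 and 101.4. These came from 3, 1, 7 and 33 UMIs in glomerular cells and from 2, 3, 21 and 239 in arterial or descending vasa recta cells. The Gulo-/- libraries lay above the wild type libraries in all 3 kinds, with few or 0 wild type UMIs in each. How many of all genes separate in this way was not counted within a kind. In the whole gate 29% did so higher in Gulo-/- and 12% lower. Flt1 stood at 995 and 908 CPM in wild type and 1635 and 1146 in Gulo-/- peritubular capillary cells (log2 0.43 ± 0.28, SE, edgeR adjusted p = 0.7), and at 367 and 404 against 782 and 469.5 in arterial or descending vasa recta cells. Its Gulo-/- libraries were the higher ones in both kinds, and the genotypes overlapped in glomerular cells.

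**Figure D3:**
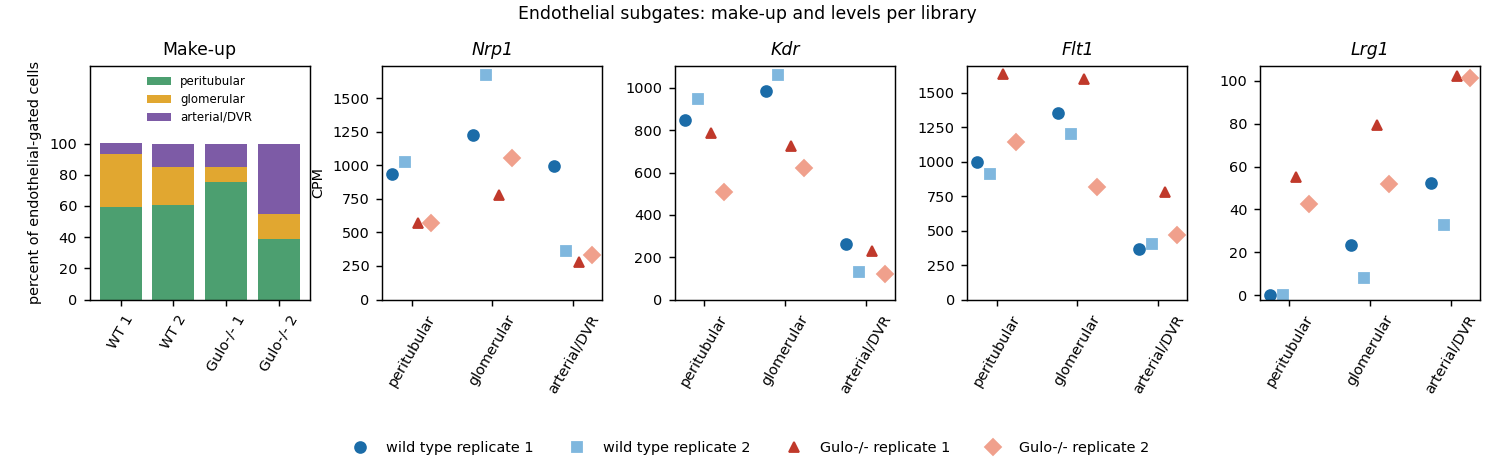
Left, percent of endothelial-gated cells (y) of each kind in each library (bars). Right, CPM (y) of Nrp1, Kdr, Flt1 and Lrg1 in peritubular capillary, glomerular and arterial or descending vasa recta (arterial/DVR) cells, 1 point per library. Nrp1 and Kdr are lower and Lrg1 is higher in Gulo-/- peritubular and glomerular cells.

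Other genes of the pathway were read in 6 lists with 108 genes. In endothelial cells 74 were tested and 0 were called by edgeR, with 10 higher and 5 lower at an unadjusted p under 0.05, where 4.94% and 5.25% of all tested genes were higher and lower. By DESeq2, Aplnr (adjusted p = 8.65e-08) and Esm1 (0.0055) were called. The list of VEGF-responsive and Notch tip and stalk genes had 21 tested, of which 4 were higher and 3 lower at an unadjusted p under 0.05, with a median log2 change of 0.39 against 0.01 over all genes tested. Its 4 named genes lay in both directions. Aplnr, the apelin receptor, stood at 218 and 49.6 CPM in wild type against 5.21 and 6.31 in Gulo-/- libraries (log2 -4.55 ± 0.71, SE, edgeR adjusted p = 0.0891). Esm1, a secreted proteoglycan of tip cells induced by VEGF, stood at 920 and 1416 CPM against 438 and 301 (-1.82 ± 0.37, edgeR adjusted p = 0.119), and Apln, the ligand apelin, at 30.7 and 18.6 against 6.51 and 2.27 (-3.02 ± 0.75, edgeR adjusted p = 0.193).

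From the same list Erg, an endothelial transcription factor, stood at 69.7 and 51.7 against 120 and 149 CPM (1.02 ± 0.27, edgeR adjusted p = 0.216). The Gulo-/- libraries lay below wild type for Aplnr, Esm1 and Apln and above it for Erg. Within peritubular capillary cells alone the log2 changes were -3.84 for Aplnr, -1.92 for Esm1 and -2.05 for Apln, with edgeR adjusted p-values of 0.115, 0.171 and 0.335. When 1 library was left out, Esm1 ranged from an edgeR adjusted p of 9.95e-05 (-2.20, without Gulo-/- replicate 1) to 0.379 (-1.36, without wild type replicate 2). Aplnr ranged from 0.00508 (-5.25, without wild type replicate 2) to 0.644 (-4.60, without Gulo-/- replicate 2), and was -3.32 without wild type replicate 1. Apln ranged from -1.92 without Gulo-/- replicate 2 to -3.58 without Gulo-/- replicate 1, with edgeR adjusted p-values of 0.568 and 0.431. Stromal and mural markers summed to 19.5 and 14.5 CPM in wild type and 185 and 98.2 in Gulo-/- endothelial cells, and proximal tubule markers to 446, 1361, 530 and 462. Their part in these results was not tested.

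Named genes of the other lists lay in either direction. S1pr1, a sphingosine phosphate receptor of endothelium, stood at 142 and 143 CPM against 303 and 318 (log2 0.97 ± 0.24, SE, edgeR adjusted p = 0.185). Nos3, the endothelial nitric oxide synthase, stood at 50.2 and 24.8 against 88.5 and 95.2 CPM (1.19 ± 0.33, edgeR adjusted p = 0.242). Neither passed the test. Foxo1, a transcription factor held in check by TEK signalling, stood at 131 and 122 against 76.8 and 83.6 CPM. Hif1a stood at 72.5 and 43.4 against 130 and 114 CPM, and Egln3, an oxygen sensor, at 53.0 and 20.7 against 18.2 and 17.7. In the endoglin, LRG1 and TGF-beta or BMP list, 16 genes were tested and 0 reached an unadjusted p under 0.05, the lowest being Smad2 (0.0655) and Acvrl1 (0.0837).

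In tubule cells the question was whether the ligand side changed. The thick ascending limb gate held 44, 196, 130 and 3592 cells. Vegfa stood there at 80.9 and 46.1 CPM in wild type against 114 and 90.2 in Gulo-/- libraries, from 13, 47, 49 and 1716 UMIs. The Gulo-/- libraries were higher, and the log2 change was 0.76 ± 0.37 (SE, n = 2 libraries per genotype, edgeR unadjusted p = 0.0381, adjusted p = 0.582). Leaving out wild type replicate 2 brought it to 0.33. Nrp1 changed by 0.09 ± 0.36 in the same class. Of these 2 tested genes 0 were called by edgeR or DESeq2, 1 had an unadjusted p under 0.05 (higher, where 4.11% of all tested genes were higher and 3.78% lower at that level), and 2.07% of 6222 genes were called. Of the pathway lists, Hes1, a Notch target, rose from 37.3 and 127 CPM to 285 and 196, from 6, 130, 123 and 3721 UMIs. Its log2 change was 1.23 ± 0.33 and was called (SE, edgeR adjusted p = 0.0135). This call was lost without wild type replicate 1 (0.78, adjusted p = 0.891), without Gulo-/- replicate 1 (0.90, adjusted p = 0.417), with no filter (0.0962), with a mitochondrial limit of 25% (0.676) and by DESeq2 (adjusted p = 0.999).

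In proximal tubule cells Vegfa stood at 18.4 and 29.6 CPM in wild type against 44.0 and 31.9 in Gulo-/- libraries. The pairs did not overlap but nearly touched, and the log2 change was 0.50 ± 0.30 (SE, edgeR adjusted p = 0.435). Of the upstream oxygen-sensing genes, Hif1a stood at 14.5 and 15.6 against 30.6 and 34.2 CPM (0.94 ± 0.24, edgeR adjusted p = 0.139). Epas1 gave 0.90 ± 0.36 on the log2 scale (edgeR adjusted p = 0.269). Over all lists 69 genes were tested in this class and 0 were called by edgeR, with 23 higher and 5 lower at an unadjusted p under 0.05, where 8.51% and 8.59% of all tested genes were. DESeq2 called Hes1 (adjusted p = 8.07e-05), which stood at 6.47 and 12.9 against 41.6 and 46.4 CPM (edgeR adjusted p = 0.0588).

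The receptors were also read at low level in proximal tubule cells, and higher in Gulo-/- libraries. Flt1 stood at 1.69 and 0.977 CPM in wild type against 25.3 and 5.54 in Gulo-/- libraries (log2 3.46 ± 0.99, SE, edgeR adjusted p = 0.225). Kdr changed by 3.02 ± 0.90, Eng by 2.45 ± 0.66, Tie1 by 2.27 ± 0.57 and Tek by 2.15 ± 0.69, and 0 of all 10 genes were called by edgeR, where 0.423% of 11122 genes were. At an unadjusted p under 0.05 there were 6, all higher, and DESeq2 called 3. Libraries did not overlap for 8 of the 10, all higher in Gulo-/-, where 35.4% of all tested genes were higher in that way. The 10 endothelial gate markers moved with them. Together they stood at 0.238% and 0.264% of their endothelial level in wild type and 1.23% and 0.952% in Gulo-/- proximal tubule cells, and Flt1 at 0.16%, 0.11%, 1.81% and 0.803%. Of 9 markers tested all 9 had a positive log2 change, with a median of 2.23 and a range of 0.05 to 2.84, and Egfl7 was called (edgeR adjusted p = 0.0499). The part of endothelial RNA in the receptor values of tubule cells was not tested.

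**Figure D4:**
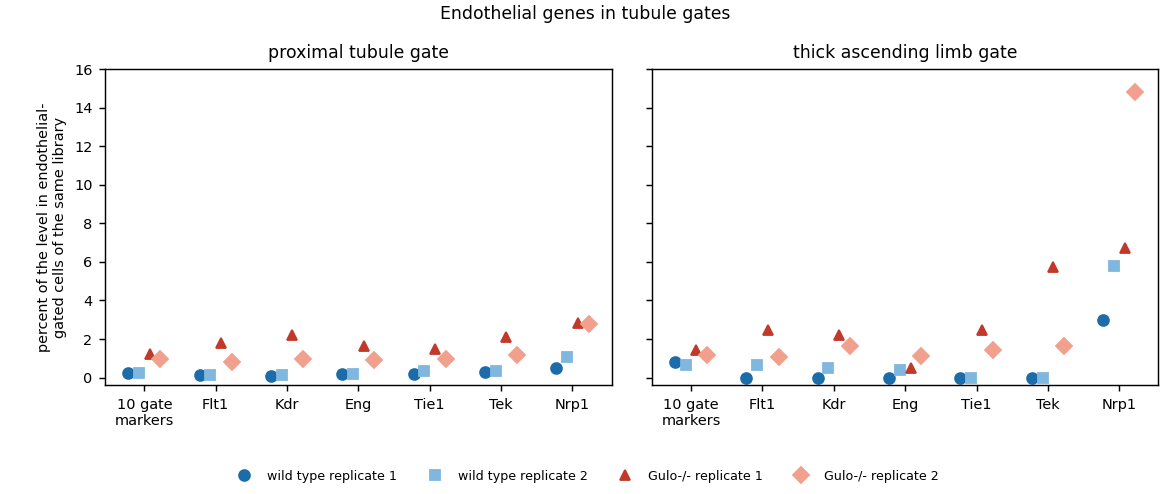
Level in proximal tubule (left) and thick ascending limb (right) cells as percent of the level in endothelial cells of the same library (y), for the 10 endothelial gate markers together and for 6 genes (x), 1 point per library. Markers and genes are higher in both Gulo-/- libraries in proximal tubule, and Nrp1 lies above the markers in every library of both classes.

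The change with genotype in endothelial cells was set against that in proximal tubule cells of the same libraries. The difference was called for 7 of the 10 genes, where 2.59% of 11902 genes were called (edgeR, class-by-genotype interaction with library as a term). Lrg1 changed by 3.15 ± 0.58 more in endothelial than in proximal tubule cells (log2, SE, edgeR adjusted p = 1.54e-04), since its proximal tubule levels of 3.52 and 7.18 against 4.75 and 4.15 CPM overlapped. For Kdr (-3.74), Flt1 (-3.23), Eng (-2.75), Tek (-2.21), Tie1 (-2.08) and Nrp1 (-1.82) the endothelial change was the lower one. These differences include the change of their low proximal tubule signal. The 10 endothelial gate markers, none of them a member, had a median log2 change of -0.09 in endothelial cells. The 9 of them tested in proximal tubule cells had a median of 2.23 there. Their part in the negative differences was not tested. Leaving out Gulo-/- replicate 1 left 3 genes called.

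The last data were the authors' deposited methylation regions (mm10). They give mean levels between 0 and 1 on 2 sides of a comparison of wild type and Gulo-/- samples. The table does not name the genotype of a side or give values per sample or coverage, so these are the authors' values, with no error, no test and a direction by side only. All 10 genes had at least 1 region, where 58.3% of 27933 symbols did. Of the 74 regions 54.1% were lower on side 1, close to the 53.8% of all regions, and the median absolute difference was 0.197 against 0.192.

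Individual genes differed in direction. Vegfa had 18 regions, as many as or more than all but 3.54% of genes with a region, and 15 of them were lower on side 1. They spread from -37128 to 120721 bases from the start. The one nearest the main start (chr17:46030816-46030908, intron 1 of 7, distance 1469 bases) had levels of 0.132 and 0.242 on sides 1 and 2 over 10 CpGs. The largest Vegfa differences were at chr17:45926354-45926737 (0.557 and 0.868) and chr17:45931554-45931857 (0.618 and 0.335), in opposite directions and both distal intergenic. A region at chr17:46023044-46023195, intron 2 of 4 of a shorter transcript, was higher on side 1 (0.867 and 0.666).

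Kdr had 16 regions, of which 12 were higher on side 1. Within 3000 bases of its start were chr5:75977087-75977143 in intron 1 of 29, with levels of 0.582 and 0.408, and the upstream chr5:75981001-75981258, with 0.545 and 0.709. These 2 lay in opposite directions on either side of the promoter shown above. The largest Kdr differences were at chr5:76014428-76014583 (0.621 and 0.866) and chr5:75974704-75974939 in intron 1 (0.642 and 0.415).

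Flt1 had 13 regions and 9 were lower on side 1. Its promoter region, chr5:147725771-147726681, held 91 CpGs, the most of any region of the 10 genes, with levels of 0.118 and 0.254. It covered all 250 bases of the CpG-rich Flt1 sequence shown above. The largest Flt1 differences were at chr5:147676274-147676619 in exon 8 of 30 (0.899 and 0.658) and chr5:147631031-147631302 in intron 14 of 29 (0.633 and 0.871).

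Lrg1 had 3 regions, all lower on side 1 and all within 3000 bases of its start. The promoter region, chr17:56121586-56123180, held 7 CpGs with levels of 0.594 and 0.826, and covered the whole Lrg1 sequence shown above. The other 2 were larger in CpGs, with 52 at chr17:56123789-56124286 (0.373 and 0.618) and 44 at chr17:56124548-56125092 (0.135 and 0.345). The last of these is annotated to exon 17 of 17 of the neighbouring gene Sema6b, and the one before it to a 3′ UTR. Of all symbols, 21% had a promoter region, as Flt1 and Lrg1 did.

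**Figure D5:**
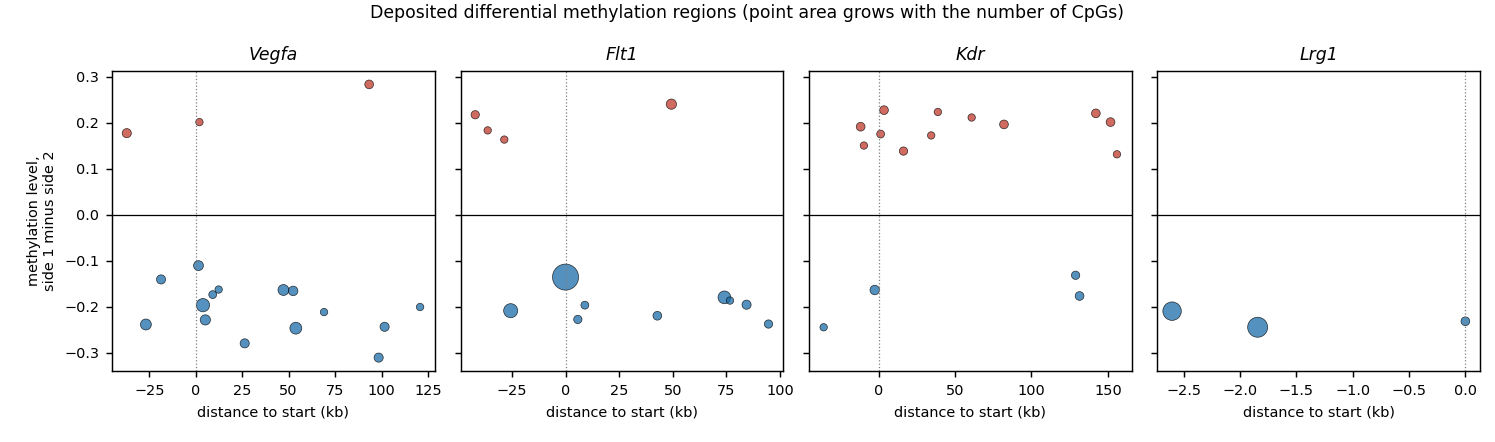
Difference in methylation level, side 1 minus side 2 (y), of each deposited region of Vegfa, Flt1, Kdr and Lrg1 against its distance to the annotated start in kilobases (x), with point area growing with the number of CpGs. Most Vegfa regions and all 3 Lrg1 regions are below 0, and most Kdr regions are above it.

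The remaining genes had few regions near their starts. Eng had 1, in intron 1 of 14 at chr2:32649095-32649443, higher on side 1 (0.907 and 0.713). Nrp1 had 1 at chr8:128342862-128343092, with 0.974 and 0.798, and Tie1 had 1 at chr4:118505460-118505825, with 0.580 and 0.830, both distal intergenic. The 3 Tek regions lay in introns, the largest at chr4:94776170-94776782 (0.827 and 0.622) and chr4:94788854-94789130 (0.551 and 0.737). All 8 Angpt2 regions lay in introns of Mcph1, the gene that surrounds it, led by chr8:18774896-18775199 (0.618 and 0.857) and chr8:18789519-18789629 (0.677 and 0.890). Of the 10 Angpt1 regions 8 were higher on side 1, led by chr15:42402642-42403021 (0.867 and 0.595) and chr15:42719489-42720050 (0.352 and 0.615), the second in the opposite direction.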

How the data were processed

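Single-cell RNA was read in 2 wild type and 2 Gulo-/- mouse kidney libraries. The raw UMI counts per gene and cell barcode were deposited by the authors, with Seurat 2.3.4, MACS2 2.1.2 and mm10 named per the submitters' processing notes. Neither aligner nor counting tool is given in the sources used here. A marker table deposited by the authors gives natural log ratios, adjusted p-values and the fraction of positive cells per cluster, with cells as units. The authors' deposited methylation table gives the mean methylation fraction of each side of a comparison, their difference as a score, the number of CpGs and the distance to a start.

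Barcodes with at least 500 UMIs, 200 genes and at most 50% mitochondrial UMIs were kept, and barcodes that both wild type libraries held were removed from replicate 2. Barcodes were scored for doublets in each library with scanpy 1.11.5, and those with the highest scores were removed (20, 456, 28 and 1559). The number removed was set by library size alone, at a rate of 0.8% per 1000 cells. Cells were assigned to a class by the summed UMIs of its marker list, with at least 3 markers seen, and mixed cells were left unassigned. The marker lists held none of the 10 genes. Sums of UMIs over the cells of a class in a library were tested with edgeR 4.0.16 (TMM scaling, filterByExpr, robust quasi-likelihood F test, two-sided) where every library had at least 20 cells of the class. P-values were Benjamini-Hochberg adjusted over all genes tested, and an adjusted p under 0.05 was a call. Distal convoluted and connecting tubule, principal and intercalated cells missed the cell minimum and were not tested. The difference of changes was the class-by-genotype interaction with library as a term. Shares used cells thinned to 1000 UMIs with 95% exact binomial intervals, which cover counting error only, and an exact permutation test over libraries. The fits were tested on simulated data.

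All 10 genes are named, with each called gene of the 6 pathway lists and otherwise up to 4 per list and class with the lowest p, the 3 most alike genes of each member, regions within 3000 bases of a start, and otherwise the 2 largest per gene. The members and lists were chosen with earlier results of these data known. Alternatives were DESeq2 1.42.0, RLE size factors, no filter on low counts, replicate and sex blocks, other cell filters and gates, and leaving out each library. Tests within endothelial kinds were added after seeing the data. Promoter sequences are from RefSeq (GRCm38.p6).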

Additional observations from a re-analysis of the deposited data

Results flagged for a closer look

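The difference between the endothelial and the proximal tubule change with genotype passed its test for 7 genes (edgeR interaction, adjusted p under 0.05). On the log2 scale it was 3.15 for Lrg1, -3.74 for Kdr, -3.23 for Flt1, -2.75 for Eng, -2.21 for Tek, -2.08 for Tie1 and -1.82 for Nrp1. For Lrg1 the endothelial change was the higher one, and for the 6 receptors and co-receptors the lower one. Endothelial gate markers were also higher in Gulo-/- proximal tubule cells (median log2 change 2.23 over 9 tested). In endothelial cells their median log2 change was -0.09 over 10 tested. Their part in the 6 negative differences was not tested.

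Leaving out Gulo-/- replicate 1 took the call from Nrp1 (-1.85, edgeR adjusted p = 0.238), Tek (-1.84, 0.164), Tie1 (-1.84, 0.175) and Eng (-2.34, 0.0664). Leaving out Gulo-/- replicate 2 took it from Nrp1 (-1.82, edgeR adjusted p = 0.43) and Lrg1 (2.94, 0.0725), and leaving out wild type replicate 2 took it from Lrg1 (2.42, 0.053). Flt1 and Kdr kept theirs when any single library was left out.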

How the results depend on the processing

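Of the member log2 changes under other settings, 259 kept direction and side of the threshold, 18 gained a call, 5 lost one and 18 turned sign. Genes called in endothelial cells (21) numbered 75 with DESeq2, 342 with no filter, 4 with a mitochondrial limit of 25%, 69 with shared barcodes kept, 11 and 9 within peritubular and glomerular cells, and 9 to 239 when 1 library was left out. Members called there (1) numbered 2 with DESeq2 or no filter, 0 with a sex block, the 25% limit, cells with proximal tubule markers removed, or either endothelial kind, and 0 to 3 when 1 library was left out. The value 0 came without wild type replicate 2 and 3 without Gulo-/- replicate 1. Proximal tubule calls (47) numbered 345 with DESeq2, 30 with RLE size factors, 971 with no filter, 0 with a sex block, 29 with the 25% limit, and 0 to 310 when 1 library was left out, and members called there (0) numbered 3 with DESeq2 and 5 with no filter. Thick ascending limb calls (129) numbered 19 with DESeq2, 0 with the 25% limit, where fewer genes were tested, and 16 to 157 when 1 library was left out. The 7 called differences of change numbered 3 to 8, and regions within 10000 bases numbered 16 of 74.

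With the replicate number as a block, 334 endothelial and 599 proximal tubule genes were called, with 2 and 5 members. The labels do not say that the numbers pair the libraries, and deviations of same-numbered libraries correlated at 0.153, -0.00143 and -0.0711 in the 3 tested classes.

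These log2 changes turned sign. Endothelial Flt1 was 0.03 with no filter, 0.09 with the 25% limit, 0.43 in peritubular cells and -0.71 to 0.47 when 1 library was left out. Endothelial Tek was 0.02 in peritubular cells and -0.78 to 0.30, Tie1 0.06 in glomerular cells and -0.32 to 0.23, and Angpt2 -0.86 to 0.04. In proximal tubule, Angpt1 was -0.08 with a sex block, -0.10 with the 25% limit and -0.82 to 0.53, and Lrg1 -0.83 to 0.07. In thick ascending limb, Nrp1 was -0.03 with a sex block and -0.64 to 0.98, and Fgf1, at -0.80 with all libraries, -1.07 to 0.10. The difference of changes was -1.93 to 6.98 for Vegfa and -1.82 to 5.82 for Angpt1. Share differences thinned to 2000 UMIs were -0.15 points for Vegfa, 4.82 for Tek, 3.45 for Tie1, 0.192 for Angpt1 and -0.302 for Angpt2, which was -1.34 without thinning. The cause of these shifts was not tested. With 88 to 843 endothelial cells per library and 2 libraries per genotype, small changes could not be resolved, and larger ones could go uncalled. In simulated counts, log2 changes of 1.5 were called by edgeR for 49% of changed genes in endothelial cells. The share was 41.1% in proximal tubule and 44.8% in thick ascending limb. Spread in the simulated counts followed only the trend over expression level. Spread particular to a gene and differences in cell mix were not simulated, so these shares need not hold for the real counts.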

Other observations

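Other genes of the pathway lists were read in the 3 tested classes, and none of those named in this paragraph or the next passed the edgeR test. In endothelial cells the list of other VEGF ligands and receptors had 7 genes tested and 1 higher at an unadjusted p under 0.05, where 4.94% of all tested genes were higher. It was led by Sema3g, a semaphorin of arterial and glomerular endothelium (log2 0.88), with Flt4 at -0.66, Nrp2 at -0.52 and Sema3f at 0.35. Among 13 receptor partners and signal steps, Tnip2 stood at 1.19 and Plcg1 at 0.65. Of 11 angiopoietin-like and other angiogenic factors, Col18a1 stood at 1.65, Cxcl12 at 0.99 and Thbs2 at 0.79. Smad4 (0.49) and Smad1 (0.46) of the TGF-beta or BMP arm, and Epas1 (0.55) and Arnt (0.60) of oxygen sensing, were smaller.

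In proximal tubule cells 7 of 13 VEGF-responsive and Notch genes were higher and 1 lower at an unadjusted p under 0.05, where 8.51% of all tested genes were higher and 8.59% lower, with Notch1 at 2.37, Jag1 at 2.11 and Rcan1, a calcineurin regulator, at -1.51. Of 15 genes of the endoglin and TGF-beta or BMP arm 5 were higher and 2 lower at that level, and the 2 lower ones included the BMP targets Id2 (-1.33) and Id3 (-1.60), with Bmpr2 at 1.15 and Bmp4 at 0.91. Ptprb, a phosphatase that acts on TEK, stood at 2.31, S1pr1 at 3.32, Sema3g at 2.81, Ackr3 at 0.92, Plcg1 at 0.87, Ptprj at 0.78, Sema3c at 0.70, Akt1 at 0.46 and Vegfb at 0.29. Spry1 and Thbs1 were positive as well, with edgeR adjusted p-values of 0.139 and 0.161. Endothelial gate markers were also higher in Gulo-/- libraries in this class (median log2 change 2.23), and their part in these values was not tested. The oxygen-sensing genes Egln2 (-0.41) and Hif1an (-0.19) were near 0.

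In thick ascending limb 36 list genes were tested. Apart from Hes1, Spry2 stood at 1.84, Col18a1 at 0.85, Mapk3 at 0.77, Hif1a at 0.73, Foxo3 at 0.72, Bmpr2 at 0.48 and Hif1an at 0.33. Lower values were Egln1 at -0.81, Fgf1 at -0.80, Foxo1 at -0.74, Id2 at -0.71, Bmp4 at -0.66, Smad5 at -0.50, Pdgfd at -0.45, Vegfb at -0.35, Grb2 at -0.28, Egln2 at -0.24 and Sema3c at -0.15. Adjusted p-values of these genes lay between 0.454 and 0.995 (edgeR).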
